A study of Mus musculus with 8 samples.

Results

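The genes described here encode 3 tissue inhibitors of metalloproteinases (Timp1, Timp2 and Timp3), 6 matrix metalloproteinases (Mmp1b, Mmp3, Mmp9, Mmp10, Mmp13 and Mmp14) and the related secreted protease Adamts1. They were taken by name from the array annotation, which gave 19 probe sets for these 10 genes among 45037 probe sets that were not Affymetrix controls. All 10 were among the 13939 genes that passed the filter on low values, Mmp1b on carcinoma arrays only. Mouse skin tumour cells were sorted for the epithelial surface protein Epcam, and their RNA was read on 8 arrays, 2 in each of 4 groups. Papilloma, a benign skin tumour, was sampled as controls (genotype NR2F2 WT) and with NR2F2 overexpressed (NR2F2 GOF, gain of function). Squamous cell carcinoma was sampled as Cre-negative controls (NR2F2 WT) and as K5CreER;NR2F2fl/fl tumours (NR2F2 KO, loss of function, LOF). In the LOF tumours the recombinase is driven by the keratin 5 promoter, so that deletion is aimed at keratin 5 cells and not at stroma. What drives the overexpression, the age of the mice and how the tumours arose are not given in the sources used here, nor is it said that replicates were separate animals. The p-values therefore measure only the spread between these arrays, which may be technical.

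Matrix metalloproteinases are zinc endopeptidases that are made as inactive proenzymes and cut collagens, laminins, fibronectin and many growth factors once the propeptide is removed. TIMPs bind the active site and block them, and Timp3, which stays bound to the matrix, also blocks ADAM and ADAMTS proteases. In skin tumours the enzymes come both from tumour keratinocytes and from fibroblasts, macrophages and neutrophils, and they are studied chiefly for their part in invasion through the basement membrane.

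NR2F2 (COUP-TFII) is a transcription factor of the nuclear receptor family, and the design asks how raising it in a benign tumour and removing it from a malignant one changes gene expression. Nr2f2 itself followed the labels. It lay below background on both control papilloma arrays, at 2.55 to 2.80, and stood at 11.43 and 11.47 with GOF. In carcinoma it stood at 7.93 and 8.14 on the control arrays. With LOF it lay below background on the first array, at 4.77, and just above background on the second. The values are log2 RMA values, and a step of 1 is a doubling. Papilloma and carcinoma arrays were on different scales, with array medians of 3.12 to 3.16 and 5.08 to 5.15, so no level was compared between the tumour types. Background, the brightest control probe set for a sequence absent from mouse, was 3.09 to 3.33 on papilloma and 4.95 to 5.01 on carcinoma arrays. The basal keratin Krt5 stood at 12.35 to 12.47 in papilloma and 12.64 to 12.75 in carcinoma. Epcam, the sort marker, stood at 10.17 and 10.57 in control papilloma and fell with GOF to a mean of 8.84 (log2 fold change -1.53, SE 0.22, limma adjusted p = 0.0372), and it stood at 11.36 to 11.79 in carcinoma. Of the 10 epithelial markers, Epcam included, 1 rose and 2 fell with GOF, against 1.21% of all genes called. None of 5 T cell markers tested passed (1 at an unadjusted p under 0.05, against 16.4% of all genes). Of these 5, 3 to 5 lay at or below background on each papilloma array and 2 to 3 on each carcinoma array, so a change could hardly show. With LOF 0 of either list passed in limma, against 0.0143% of all genes (0 at an unadjusted p under 0.05, against 13.8%).

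The 4 members Mmp13, Mmp1b, Mmp3 and Mmp10 are neighbours on chromosome 9, in a run of 10 consecutive Mmp genes in the RefSeq gene table (Mmp13, Mmp12, Mmp1b, Mmp3, Mmp1a, Mmp10, Mmp8, Mmp27, Mmp20 and Mmp7), whereas the other members lie on other chromosomes. Because NR2F2 acts on DNA and 4 members share a locus, the 100 bases before the annotated start are shown for these 4 genes and for the members outside the locus with the clearest differences. Sequences are from RefSeq, build GRCm38.p6, written 5′ to 3′ on the gene's strand. Capitals mark TGANTCA (the AP-1 element, which reads the same on both strands), TATAAA (the TATA box) or GGGCGG (the GC box), the latter 2 searched on both strands.
Mmp13, chr9:7272414-7272513, plus strand: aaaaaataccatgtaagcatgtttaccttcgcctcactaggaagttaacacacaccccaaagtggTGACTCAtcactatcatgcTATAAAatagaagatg
Mmp1b, chr9:7388027-7388126, minus strand: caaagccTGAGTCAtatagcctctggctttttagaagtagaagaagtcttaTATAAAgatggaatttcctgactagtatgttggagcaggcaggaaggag
Mmp3, chr9:7445722-7445821, plus strand: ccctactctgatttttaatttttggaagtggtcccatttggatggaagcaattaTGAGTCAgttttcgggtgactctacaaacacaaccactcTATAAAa
Mmp10, chr9:7502242-7502341, plus strand: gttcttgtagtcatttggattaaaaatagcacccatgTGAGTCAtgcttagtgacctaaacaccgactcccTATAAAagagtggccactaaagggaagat
Timp2, chr11:118355412-118355511, minus strand: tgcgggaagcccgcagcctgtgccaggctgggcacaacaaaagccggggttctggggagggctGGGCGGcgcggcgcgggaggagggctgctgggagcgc
Timp3, chr10:86300312-86300411, plus strand: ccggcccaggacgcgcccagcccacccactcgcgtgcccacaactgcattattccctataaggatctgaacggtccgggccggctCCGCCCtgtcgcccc
Adamts1, chr16:85803114-85803213, minus strand: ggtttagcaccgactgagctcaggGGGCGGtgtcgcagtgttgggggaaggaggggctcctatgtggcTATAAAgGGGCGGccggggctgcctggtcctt

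Over the full window of 250 bases before to 50 after the start, 9 of the 10 members had a promoter in the table, and Mmp9 had none there. TGANTCA was found in 4 of these 9, the 4 genes of the chromosome 9 locus, against 7.81% of all 32851 promoters of that length. The trait is shared by other genes of the locus: 8 of the 12 promoters listed for the run held TGANTCA, among them 1 each of Mmp12, Mmp1a, Mmp20 and Mmp7, and 9 of the 12 held TATAAA. Of the members, the same 4 and Adamts1 held TATAAA, which 13.6% of promoters hold, and 1.54% hold both. The promoters of Timp1, Timp2, Timp3, Mmp14 and Adamts1 held GGGCGG, as did 35.7% of all. The nuclear receptor half-site AGGTCA, searched on both strands, was found for Mmp1b and Mmp10 and in 16.3% of promoters. Its direct repeat with 1 base between was found for none of the 9 and in 0.0396% of promoters. These matches describe letters in a short window and not sites in use.

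With NR2F2 overexpressed in papilloma, Adamts1 fell, and the stromelysin gene Mmp3 and the collagenase gene Mmp13 stood lower in both GOF arrays, while the gelatinase gene Mmp9 and the inhibitor gene Timp3 stood higher. Adamts1 alone passed limma's adjusted threshold of 0.05, 1 of 10 members against 1.21% of all genes tested (0.452% for lower values). At an unadjusted p under 0.05 there were 5 of 10, against 16.4% of all genes. A descriptive rule asked that all 4 pairs of a GOF and a control array differ 1.5-fold or more in 1 direction. It was met by 5 of the 10, Timp3 and Mmp9 upwards and Mmp3, Mmp13 and Adamts1 downwards, against 6.08% of all genes, 3.9% upwards and 2.19% downwards. The median log2 fold change over the 10 was -0.01, beside 0.02 over all genes tested, since the members differed in both directions.

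With Nr2f2 removed in carcinoma, Timp2 and Timp3 stood lower and Mmp1b higher in both LOF arrays, and no member passed the adjusted threshold in limma (0 of 10, against 0.0143% of all genes). At an unadjusted p under 0.05 there were 4 of 10 (Timp2, Timp3, Mmp1b and Adamts1) against 13.8% of all genes. The 1.5-fold rule was met by 3 of the 10, the same Timp2, Timp3 and Mmp1b, against 2.9% of all genes, 1.42% upwards and 1.48% downwards. Mmp1b was below background on both control arrays, so its p and its place under the rule rest on such values. For Mmp1b only a bound of at least 1.27-fold higher is known. The median over the 10 was -0.35, beside 0.01 over all genes. Since the 10 genes were chosen with earlier results of these data known, these counts describe them and are not evidence about the families.

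**Figure D1:**
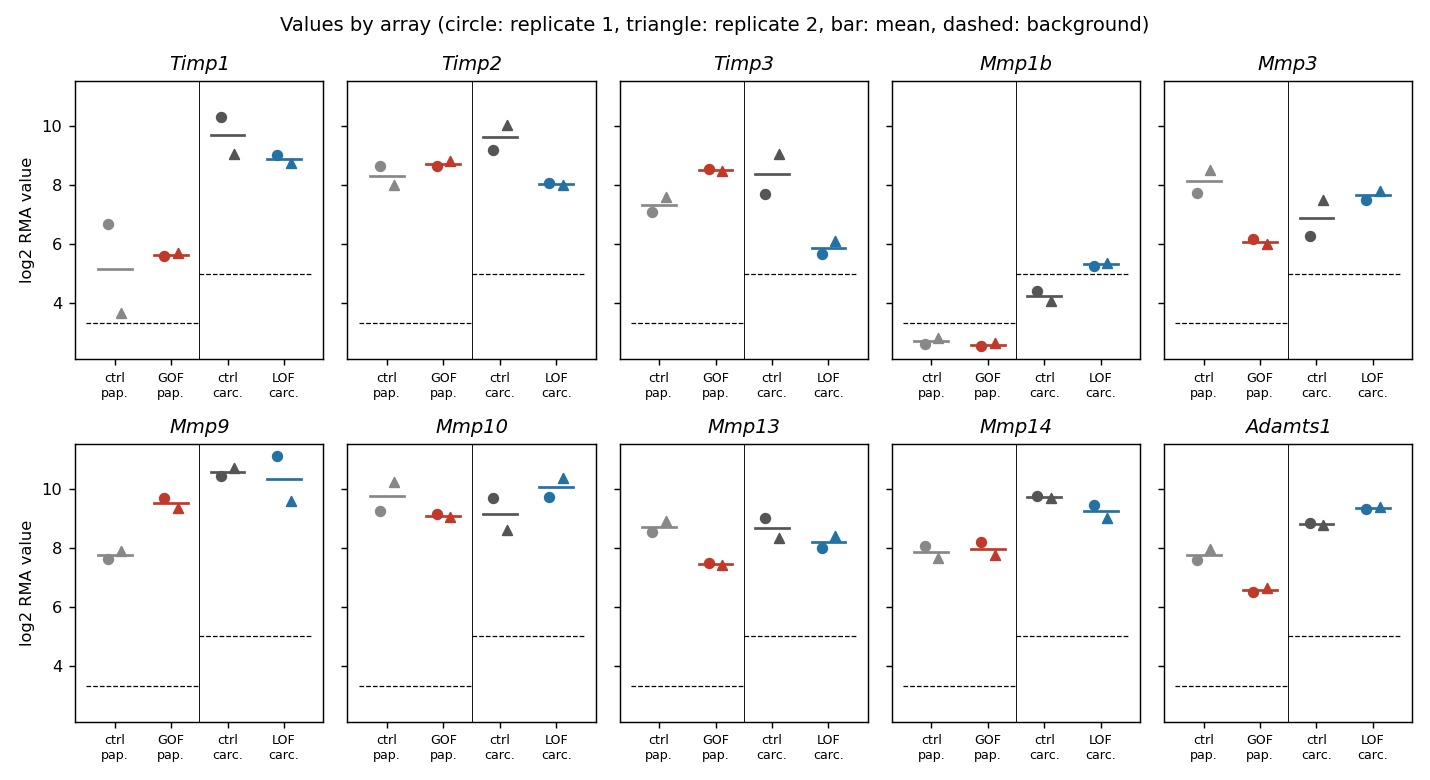
Log2 RMA value (vertical axis) of each of the 10 genes on the 8 arrays, by group (horizontal axis, control and GOF papilloma left of the line, control and LOF carcinoma right of it); circles are replicate 1, triangles replicate 2, bars group means and dashed lines the highest background of each tumour type. Timp3 lies higher with GOF and lower with LOF, while Mmp1b is below background on all 4 papilloma arrays and the 2 control carcinoma arrays.

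Timp3 encodes the matrix-bound inhibitor of metalloproteinases, ADAMs and ADAMTS proteases. On its brightest probe set it stood at 7.08 and 7.62 on the control papilloma arrays and at 8.56 and 8.48 on the GOF arrays. In carcinoma it stood at 7.70 and 9.07 on the control arrays and at 5.67 and 6.12 on the LOF arrays. The groups did not overlap in either comparison, and control carcinoma replicate 2 was the highest of the 4 carcinoma arrays. The log2 fold change with GOF was 1.17 (SE 0.44, limma adjusted p = 0.253), or 2.25-fold higher. With LOF it was -2.49 (SE 0.44, limma adjusted p = 0.122), or 5.64-fold lower. Counting Timp3 itself, 0.0502% of genes had as low or a lower log2 fold change with LOF. Timp3 was the 1 member that met the 1.5-fold rule in both comparisons with opposite directions, as did 0.258% of all genes. The difference between its effects, GOF minus LOF, was 3.66 (SE 0.62, limma adjusted p = 0.0861).

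All 4 Timp3 probe sets were higher with GOF and lower with LOF. Their log2 fold changes ran from 1.17 to 1.84 with GOF and from -2.49 to -1.41 with LOF. Each met the 1.5-fold rule with GOF. With LOF the rule was met on values above background by 2 of the 4, the brightest among them. The other two lay below background on both LOF arrays, so that only bounds are known, at least 1.84-fold and at least 2.22-fold lower. Their control replicate 1 values, 5.03 and 5.43, were close to background. None passed the adjusted threshold over all probe sets, where 0.184% were called with GOF and 0.00666% with LOF. The brightest probe set had the smallest difference of the 4 with GOF and the largest fitted one with LOF. The other probe set above background with LOF was 2.66-fold lower. Without control carcinoma replicate 2 the LOF difference of the gene was -1.81, and without control carcinoma replicate 1 it was -3.18.

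Timp2 encodes a soluble inhibitor that, besides blocking metalloproteinases, takes part in the activation of pro-Mmp2 at the cell surface together with Mmp14. It stood at 8.64 and 8.01 in control papilloma and at 8.64 and 8.83 with GOF. The GOF arrays lay above both controls, but by 0.004 in the closest pair. In carcinoma the controls stood at 9.21 and 10.04 and the LOF arrays at 8.07 and 8.01. All 4 pairs were lower with LOF, by 1.14 to 2.02. On the log2 scale Timp2 differed by 0.41 (SE 0.31, limma adjusted p = 0.592) with GOF and -1.58 (SE 0.31, limma adjusted p = 0.133) with LOF, the latter 2.99-fold lower.

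The 5 Timp2 probe sets lay close together, from 0.30 to 0.65 with GOF and from -1.72 to -1.41 with LOF. All 5 met the 1.5-fold rule in the LOF comparison and none in the GOF comparison. With GOF the groups overlapped on most of the 5, though not on the brightest. The GOF value of the gene was 0.10 without control papilloma replicate 2 and 0.73 without replicate 1. Without control carcinoma replicate 1 the LOF difference was -1.99, and without control carcinoma replicate 2 it was -1.17. The difference between the GOF and LOF effects was 1.99 (SE 0.44, limma adjusted p = 0.132).

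Timp1, the inducible inhibitor of the family, had the widest single gap of the 10 genes between 2 arrays of a group. In control papilloma it stood at 6.68 on replicate 1 and 3.69 on replicate 2, a gap of 2.99 that only 10 of the 13939 genes exceeded there. The GOF arrays, at 5.59 and 5.71, fell between them. In carcinoma the controls stood at 10.32 and 9.08 and the LOF arrays at 9.03 and 8.77, lower in all 4 pairs but by 0.04 in the closest. Its fitted log2 difference was 0.47 (limma, SE 0.90 and adjusted p = 0.872) with GOF and -0.80 (SE 0.90, limma adjusted p = 0.796) with LOF. The sign of the GOF value rested on control papilloma replicate 2, without which it was -1.03 (1.96 without replicate 1). The LOF value was -0.18 without control carcinoma replicate 1 and -1.42 without replicate 2.

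**Figure D2:**
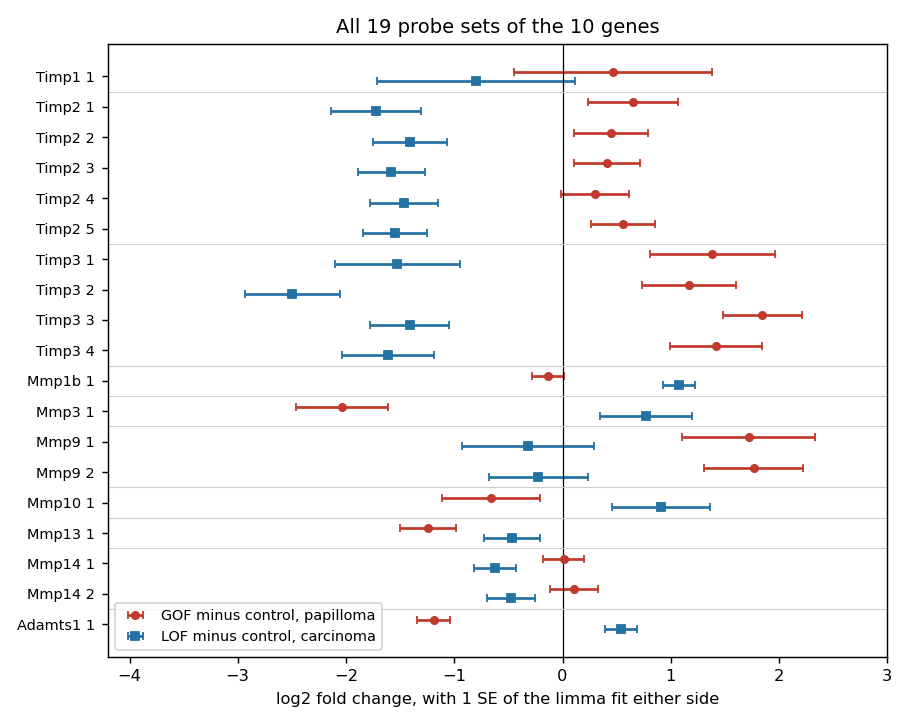
Log2 fold change (horizontal axis) of each of the 19 probe sets of the 10 genes, with bars of 1 SE of the limma fit either side; red circles are GOF minus control in papilloma and blue squares LOF minus control in carcinoma, with 2 arrays in each group. All 5 Timp2 and all 4 Timp3 probe sets lie right of 0 with GOF and left of 0 with LOF (Timp3 1 and Timp3 4 were below background on both LOF arrays), and the 2 Mmp9 probe sets lie near each other.

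Among the enzymes of the chromosome 9 locus, whose start regions with TGANTCA and TATAAA are printed above, Mmp3 showed the largest difference with GOF. Mmp3, or stromelysin 1, cuts laminin and fibronectin and activates other proenzymes. It stood at 7.75 and 8.52 in control papilloma and at 6.18 and 6.01 with GOF, lower in all 4 pairs by at least 1.57. Its fitted log2 difference was -2.04 (limma, SE 0.42 and adjusted p = 0.0791), or 4.10-fold lower. In carcinoma Mmp3 stood at 6.28 and 7.50 in the controls and at 7.51 and 7.81 with LOF. The LOF arrays lay above both controls, by 0.02 in the closest pair, and its fitted log2 difference was 0.77 (limma, SE 0.42 and adjusted p = 0.487). It was 0.16 without control carcinoma replicate 1 and 1.38 without replicate 2. The difference between the Mmp3 effects was -2.81 (SE 0.60, limma adjusted p = 0.125), and counting Mmp3 itself 0.0502% of genes had as low or a lower one. The GOF difference passed when either control carcinoma array was left out (limma adjusted p = 0.0301), through the spread shared by all groups.

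Mmp13, the main collagenase of mouse tumours, stood at 8.53 and 8.90 in control papilloma and at 7.51 and 7.44 with GOF. The fit gave -1.24 on the log2 scale (limma, SE 0.26 and adjusted p = 0.0852), which is 2.37-fold lower. All 4 pairs were lower by at least 1.02. In carcinoma Mmp13 stood at 9.02 and 8.34 in the controls and at 8.02 and 8.41 with LOF, so the groups overlapped. Its LOF value was -0.47 (SE 0.26, limma adjusted p = 0.506), and it was -0.13 without control carcinoma replicate 1, -0.81 without replicate 2 and -0.27 without LOF replicate 1. As for Mmp3, its GOF difference passed without either control carcinoma array (limma adjusted p = 0.0461).

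Mmp10, or stromelysin 2, is made by keratinocytes at wound edges. It stood at 9.26 and 10.24 in control papilloma and at 9.14 and 9.04 with GOF, below both controls but by 0.12 in the closest pair. In carcinoma Mmp10 stood at 9.68 and 8.61 in the controls and at 9.75 and 10.36 with LOF, above both controls by at least 0.07. On the log2 scale Mmp10 differed by -0.66 (SE 0.45, limma adjusted p = 0.537) with GOF and 0.91 (SE 0.45, limma adjusted p = 0.439) with LOF. Leaving out control papilloma replicate 2 brought the GOF value to -0.17, and leaving out replicate 1 brought it to -1.15. The LOF value was 1.45 without control carcinoma replicate 1, 0.37 without control carcinoma replicate 2 and 0.60 without LOF replicate 2.

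Mmp1b, a rodent relative of the interstitial collagenase gene MMP1, was at or below background on all 4 papilloma arrays, at 2.55 to 2.83. It was also below background on both control carcinoma arrays, at 4.42 and 4.07. On the LOF arrays it stood at 5.28 and 5.36, just above the background of 5.01 and 4.95. Its fitted log2 difference was 1.08 (limma, SE 0.16 and adjusted p = 0.119), and against the background level the LOF signal was at least 1.27-fold higher. It passed with a trended and robust variance prior (limma adjusted p = 0.0388). Without control carcinoma replicate 1 the fitted difference was 1.25.

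Of the 10 genes in this run on chromosome 9, 9 were on the array and 5 passed the filter. Mmp12, the macrophage elastase gene and the fifth of them, stood at 4.25 and 5.01 in control papilloma and at 4.24 and 4.45 with GOF. In carcinoma Mmp12 stood at 5.33 and 7.16 in the controls and at 5.74 and 6.71 with LOF, so the groups overlapped in both comparisons. Mmp8, Mmp20 and Mmp7 were at or below background on all 8 arrays, and Mmp1a was above it on 1, control carcinoma replicate 1. In this locus Mmp13, Mmp3, Mmp10 and Mmp12 were above background on all 8 arrays.

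Mmp9, or gelatinase B, cuts denatured collagen and type IV collagen of the basement membrane and is made by tumour cells, macrophages and neutrophils. It stood at 7.65 and 7.90 in control papilloma and at 9.71 and 9.37 with GOF, higher in all 4 pairs by at least 1.46. Its fitted log2 difference was 1.76 (limma, SE 0.45 and adjusted p = 0.125), or 3.40-fold higher, and the other probe set gave 1.72. In carcinoma Mmp9 stood at 10.43 and 10.71 in the controls and at 11.11 and 9.59 with LOF. The LOF arrays lay on either side of both controls, and their gap of 1.52 was exceeded by 1.05% of genes. The LOF value was -0.22 (SE 0.45, limma adjusted p = 0.918), and it was 0.53 without LOF carcinoma replicate 2 and -0.98 without LOF replicate 1. The wide LOF gap entered the spread used for the papilloma comparison too. On the 4 papilloma arrays alone the Mmp9 difference passed (limma adjusted p = 0.0360), as it did without either LOF array (0.0445).

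Mmp14, the membrane-type enzyme MT1-MMP, activates pro-Mmp2 and cuts collagen at the surface of invading cells. It stood at 8.08 and 7.67 in control papilloma and at 8.19 and 7.78 with GOF, with overlapping groups. In carcinoma Mmp14 stood at 9.75 and 9.70 in the controls and at 9.46 and 9.03 with LOF, lower in all 4 pairs by at least 0.24. On the log2 scale Mmp14 differed by 0.11 (SE 0.23, limma adjusted p = 0.886) with GOF and -0.48 (SE 0.23, limma adjusted p = 0.428) with LOF. Its second probe set gave 0.01 and -0.62. The GOF value was below 0 (-0.10) without control papilloma replicate 2 or GOF replicate 1 and 0.32 without either other papilloma array, and the LOF value was -0.26 without LOF replicate 2.

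Adamts1 cuts the proteoglycans versican and aggrecan and is inhibited by Timp3. It stood at 7.58 and 7.98 in control papilloma and at 6.52 and 6.66 with GOF, and it fell by 1.19 on the log2 scale (SE 0.17, limma adjusted p = 0.0372), or 2.28-fold. In carcinoma Adamts1 stood at 8.86 and 8.79 in the controls and at 9.33 and 9.40 with LOF, higher in all 4 pairs by 0.47 to 0.61. The LOF value was 0.54 (SE 0.17, limma adjusted p = 0.244), and the difference between the effects was -1.73 (SE 0.23, limma adjusted p = 0.0563). The papilloma call ended without control papilloma replicate 2 (limma adjusted p = 0.111), GOF replicate 1 (0.240), GOF replicate 2 (0.218) or either LOF array (0.0668). It also ended on the 4 papilloma arrays alone (0.0702), with quantile normalization of all 8 arrays (0.0503) and when adjusted over all probe sets (0.0532).

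**Figure D3:**
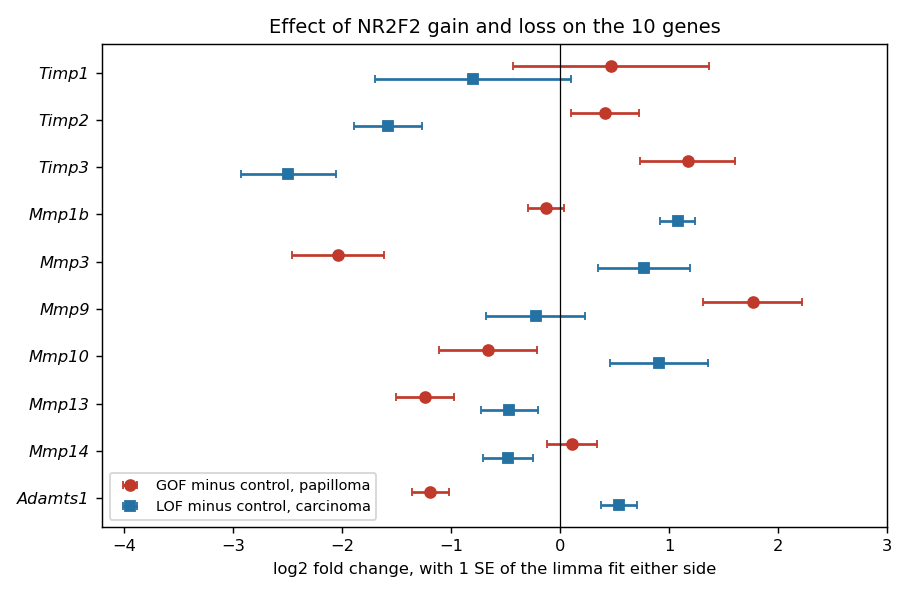
Log2 fold change (horizontal axis) of the 10 genes, each by its brightest probe set, with bars of 1 SE of the limma fit either side; red circles are GOF minus control in papilloma and blue squares LOF minus control in carcinoma, with 2 arrays in each group. Timp3 shows the widest separation, from 1.17 with GOF to -2.49 with LOF, and Mmp3 the widest in the other direction, from -2.04 to 0.77.

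Between the 2 comparisons, which share no array, 5 of the 10 genes did not overlap in either and differed in opposite directions: Timp2 and Timp3 were higher with GOF and lower with LOF, and Mmp3, Mmp10 and Adamts1 the reverse. The same held for 9.38% of all genes, and in the single comparisons the groups of 7 members did not overlap with GOF (48.5% of all genes) and those of 8 with LOF (43%). These counts take the brightest probe set of each gene. On it Timp2 cleared its papilloma controls by 0.004, and most of its other probe sets overlapped with GOF. In limma's test of the difference between the effects 0 of 10 members passed, against 0.0789% of all genes, and 7 of 10 had an unadjusted p under 0.05, against 14.2% of all genes. The adjusted p-values of those 7 ran from 0.0563 for Adamts1 to 0.337 for Mmp10. Mmp1b, 1 of the 7, was at or below background on every papilloma array and on both control carcinoma arrays. Without control carcinoma replicate 1, which left 1 control array, the difference between the effects was 2.41 for Timp2, 4.35 for Timp3 and -1.38 for Mmp1b. The tumour types were taken as normalized apart, so the sizes of the effects may not be on 1 scale.

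Markers of other cell types moved with several of these values. In bulk RNA, fewer cells of a type and less RNA per cell cannot be told apart. Of 14 fibroblast markers, 11 were tested and 0 passed in limma in either comparison (0 also at an unadjusted p under 0.05). Their mean log2 value was 8.84 and 7.55 on the control papilloma arrays and 8.86 and 9.18 on the GOF arrays. It was 7.02 and 8.78 on the control carcinoma arrays and 6.54 and 7.27 on the LOF arrays. Control papilloma replicate 1 was thus above replicate 2 in fibroblast markers as in Timp1 and Timp2, but below it in Timp3 (7.08 against 7.62). Control carcinoma replicate 2 was above replicate 1 in these markers as in Timp2 and Timp3, but below it in Timp1 (9.08 against 10.32). The collagen genes Col1a1 and Col3a1 stood between 8.69 and 11.77 on the 8 arrays. The fibroblast mean was lower on the LOF array in every array pair but that of LOF replicate 2 and control carcinoma replicate 1 (7.27 against 7.02). On each of these 2 arrays 2 of the 11 markers lay at or below background. Timp2 and Timp3 were lower on the LOF array in all 4 pairs. How far fibroblast RNA enters the Timp values was not tested.

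In papilloma most macrophage markers and the endothelial markers were higher with GOF, as Mmp9 and Timp3 were. The macrophage marker Csf1r differed by 0.08, with overlapping groups. Of 12 macrophage markers 11 were tested, and Lyz2 and C1qc rose in papilloma (2 of 11, against 1.21% of all genes). Their mean was 3.30 and 3.21 on the control papilloma arrays, where 5 and 3 of the 11 lay at or below background, and 5.44 and 6.53 on the GOF arrays, where none did. In carcinoma the means were 5.40 and 6.98 in the controls and 5.26 and 5.56 with LOF. Of 10 endothelial markers 9 were tested and 5 rose with GOF, against the same 1.21% of all genes. Their carcinoma means were 5.30 and 6.11 in the controls and 5.06 and 5.18 with LOF. Of these 2 lists, only Lyz2 and the endothelial marker Flt1 met the 1.5-fold rule in both comparisons, upwards with GOF and downwards with LOF, as Timp3 did. Their GOF minus LOF differences were 7.18 and 2.14 (limma adjusted p = 0.0312 and 0.0405). Lyz2 lay below background on both control papilloma arrays and on LOF replicate 1. Among the carcinoma arrays Mmp9 was highest on LOF replicate 1 (11.11), where the macrophage and endothelial means were lowest. Those means, 5.26 and 5.06, were close to the background of 5.01. There 4 of the 11 macrophage and 5 of the 9 endothelial markers lay at or below it. Timp3 was lowest on that array (5.67). Of 10 neutrophil markers 5 were tested and 0 passed in limma in either comparison (0 and 2 at an unadjusted p under 0.05). Of those 5, 4 lay at or below background on GOF replicate 1 and 2 on GOF replicate 2, where Csf3r stood at 3.27 and Camp at 3.17 against a background of 3.13. Cxcr2 was above background on all 4 papilloma arrays, at 5.08 and 4.03 in the controls and 4.39 and 4.77 with GOF. In carcinoma Ltf stood at 9.63 and 11.04 in the controls and at 7.72 and 8.56 with LOF. It met the 1.5-fold rule downwards and was 4.59-fold lower, without passing (limma adjusted p = 0.149). Cxcr2 was also lower in all 4 pairs, at 6.34 and 5.54 in the controls and 5.04 and 4.73 with LOF, the last below background. With LOF 4 of the 5 neutrophil markers had a fitted value below 0. The other 1, Mpo, lay below background on all 4 carcinoma arrays. The part of macrophages, endothelium or neutrophils in the Mmp9 and Timp3 values was not tested.

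**Figure D4:**
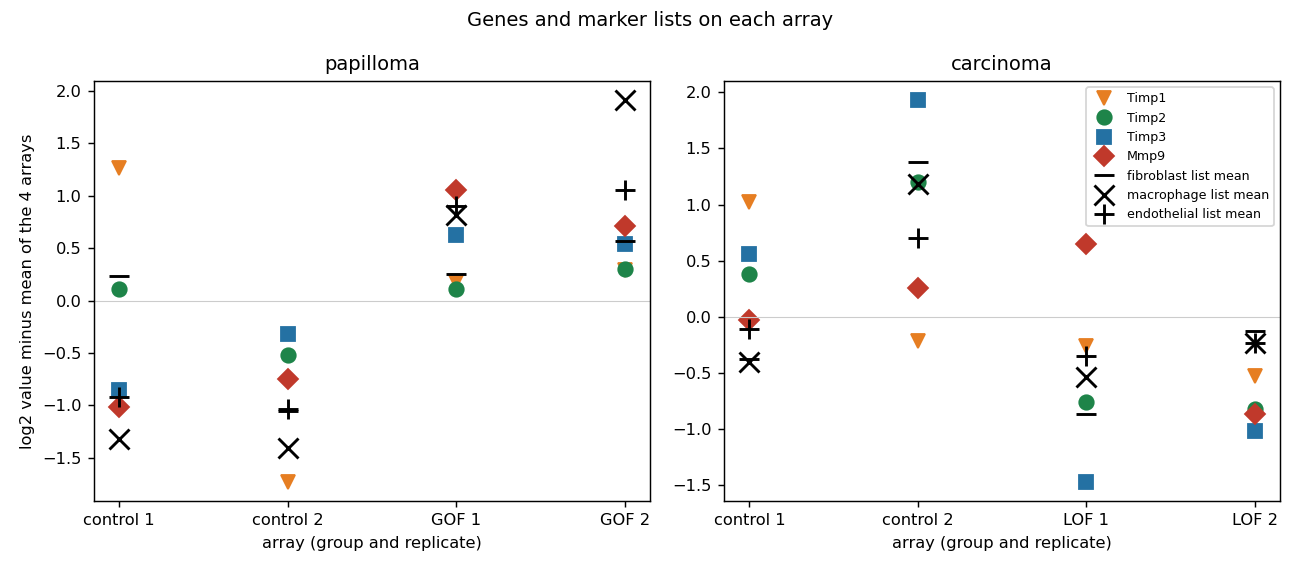
Log2 value minus the mean of the 4 arrays of the tumour type (vertical axis) for Timp1, Timp2, Timp3 and Mmp9 (coloured symbols) and for the mean of the fibroblast, macrophage and endothelial marker lists (black symbols), on each array (horizontal axis), papilloma left and carcinoma right. Control carcinoma replicate 2 is highest in the carcinoma panel for Timp2, Timp3 and all 3 lists, whereas Timp1 is highest on control carcinoma replicate 1. Control papilloma replicate 2 is lowest in the papilloma panel for Timp1, Timp2 and all 3 lists, whereas Timp3 is lowest on control papilloma replicate 1.

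Timp2 and Timp3 were set against every other gene by the root mean square difference over the 8 arrays, after centring each tumour type. For Timp2 the nearest 5 genes were Ltbp2, which encodes a matrix protein of elastic fibres (0.15), Gimap8 (0.16), the lipid phosphatase gene Plpp3 (0.19), Rassf5 (0.22) and the focal adhesion gene Tns1 (0.22), where the median gene lay at 0.67. For Timp3 they were Tnfrsf11b, which encodes the decoy receptor osteoprotegerin (0.34), Bspry (0.36), Ypel2 (0.39), the Fc receptor gene Fcgr3 (0.40) and the lipid transporter gene Spns2 (0.43), where the median gene lay at 1.07. The 5 genes near Timp3 stood at 0.54 to 1.17 with GOF and -2.50 to -1.68 with LOF, directions that choosing them by likeness to Timp3 over the same arrays had fixed.

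Around the 10 genes, 7 lists of proteases, inhibitors, activators and regulators held 89 further genes, of which 61 were tested. With GOF 1 of the 61 rose and 2 fell, where 1.21% of all genes were called, and with LOF 0 passed in limma, where 0.0143% were called. At an unadjusted p under 0.05 there were 16 with GOF and 9 with LOF, against 16.4% and 13.8% of all genes. The 1.5-fold rule was met with GOF by 7 upwards and 4 downwards, and with LOF by 0 upwards and 2 downwards, against 6.08% and 2.9% of all genes. None of the 61 met it in both comparisons. The median was -0.06 with GOF and -0.31 with LOF, where 49 of the 61 were below 0, beside 0.02 and 0.01 over all genes. These counts and medians include genes at or below background in a group. Control carcinoma replicate 2 had the highest mean of the 4 carcinoma arrays for 6 of the 7 lists.

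The gene that rose was Ctss, the lysosomal protease of antigen-presenting cells, which lay below background on both control papilloma arrays and was at least 19.8-fold higher with GOF (limma adjusted p = 0.0267). Those that fell were Ets2, an ETS factor that acts with AP-1 at metalloproteinase promoters (-1.13, SE 0.14, limma adjusted p = 0.0287), and the caveolin gene Cav1 (-0.97, SE 0.15, limma adjusted p = 0.0455). Of the 11 AP-1 and ETS factor genes, all tested, 10 were below 0 with GOF, with a median of -0.33, and Junb stood at -0.85 (limma adjusted p = 0.0967). With LOF 8 of the 11 were below 0, among them Fosl2 at -0.61 and Junb at -0.49, while Fosl1 stood at 0.58 and Etv4 at 0.56, without passing. Ets1 was the 1 gene above 0 with GOF (0.10).

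Among 19 other metalloproteinases and inhibitors 8 were tested and 0 passed in limma in either comparison (1 and 0 at an unadjusted p under 0.05). Mmp19 stood at 1.95 (SE 0.59) with GOF and -1.26 with LOF, Mmp23 at 0.99 with GOF, and the gelatinase A gene Mmp2 at -1.51 (SE 0.71) with LOF. At the other end with GOF were Mmp24 (-0.51) and Mmp17, which lay below background on both GOF arrays (at least 1.05-fold lower), and the highest values with LOF were those of Mmp24 (0.17) and Mmp12 (-0.02). Of 18 other Adamts genes 7 were tested and 0 passed in limma (1 and 0 at an unadjusted p under 0.05). With GOF they ran from Adamts9 at -0.83 and Adamts16 at -0.15 to Adamts12 at 0.24 and the aggrecanase gene Adamts4 at 1.35. With LOF the highest were Adamts7 at 0.07 and Adamts16 at -0.01. The lowest fitted values were those of Adamts12 and Adamts9, both below background on both LOF arrays, with a bound of at least 1.47-fold lower for Adamts12 and none for Adamts9.

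All 9 Adam genes were tested and 0 passed in limma (3 and 3 at an unadjusted p under 0.05). With GOF Adam9 stood at 0.95 (limma adjusted p = 0.0688) and Adam15 at 0.84, and Adam19 at -0.07, while Adam28 was near background on the papilloma arrays, at 3.04 to 3.24. With LOF Adam12 stood at -1.46, and Adam28, below background on both LOF arrays, was at least 2.18-fold lower (limma adjusted p = 0.103), while Adam15 and the TNF-releasing protease gene Adam17, a target of Timp3, at 0.13 and 0.08. In the plasminogen system, where 7 of 10 genes were tested, 0 passed in limma (1 and 0 at an unadjusted p under 0.05). The tissue activator gene Plat stood at 0.94 with GOF and -0.99 with LOF, and the urokinase receptor gene Plaur at -0.88 and -0.39. The urokinase gene Plau stood at -0.54 and 0.23, Tmprss2 at 0.48 with GOF, and the inhibitor gene Serpinb2 at 0.75 with LOF.

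Of 12 activators and partners 10 were tested, Cav1 among them, and with LOF 0 passed in limma (0 at an unadjusted p under 0.05). With GOF the lipocalin gene Lcn2, whose product binds Mmp9, stood at -1.04, the scavenger receptor gene Lrp1 at 0.82 and Bsg, which encodes the MMP inducer basigin, at 0.71. With LOF the thrombospondin gene Thbs2 stood at -0.89 and the proprotein convertase gene Pcsk6 at -0.54, and Bsg and Cav1 at 0.14 and 0.09. Of 10 cathepsin, cystatin and heparanase genes 9 were tested, and with LOF all 9 were below 0, from the osteoclast-type collagenase cathepsin gene Ctsk at -1.15 and Ctss at -0.72 to Cst3 at -0.11 and Cstb at -0.04. With GOF Ctsz stood at 1.47, and Cst3 and Ctsl at -0.37 and -0.32.

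**Figure D5:**
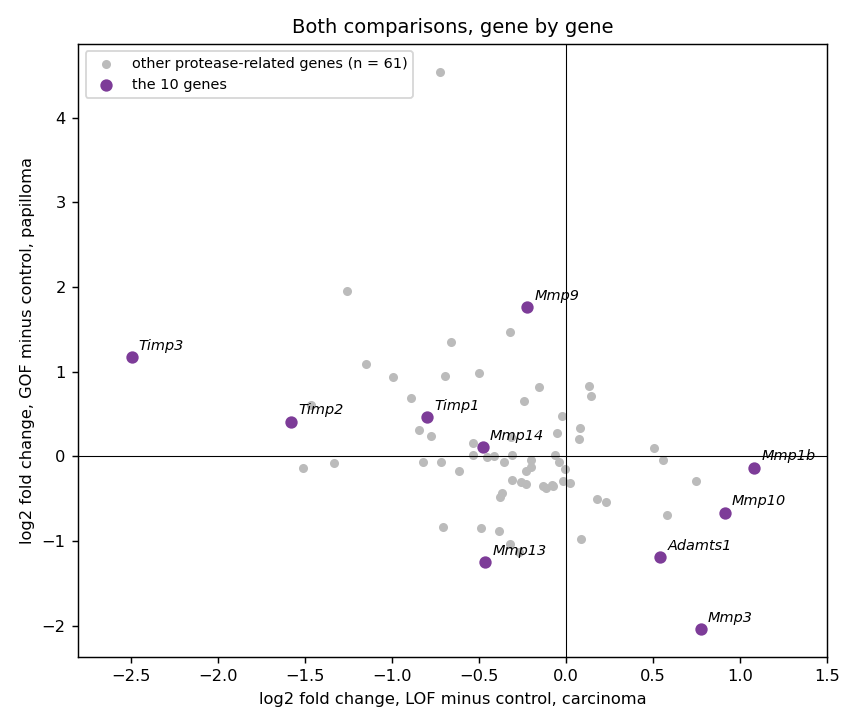
Log2 fold change with GOF in papilloma (vertical axis) against that with LOF in carcinoma (horizontal axis) for the 10 genes (purple, named) and the 61 other protease-related genes tested (grey); each point is 1 gene. Timp3 lies farthest left and Timp2 next, Mmp1b, Mmp10, Mmp3 and Adamts1 at the lower right, and the highest grey point is Ctss, whose fitted value of 4.54 is against controls below background.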

How the data were processed

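The authors deposited 1 table of log2 values per probe set from an Affymetrix mouse PM strip array, made with RMA and the affy package per the labels and the submitters' processing notes. Versions and filters are not given in the sources used here. Papilloma and carcinoma values carried 5 and 4 decimals and lay on different scales, so they were taken as normalized apart.

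Of the probe sets, 28898 had 1 gene symbol (28689 matched by Entrez number to RefSeq names, GRCm38.p6). Those above log2 4.23, the median of the table, on 2 or more of 8 arrays were kept, and the brightest stood for its gene, which left 13939 genes. This cut lay below the background of the carcinoma arrays, 4.95 to 5.01. Genes at background in carcinoma could therefore pass, and they count in the shares of all genes. limma 3.58.1 in R 4.3.3 (lmFit, eBayes) was fitted over all genes and arrays with 1 mean per group and a shared spread (4 residual and 2.67 prior degrees of freedom). Benjamini-Hochberg adjustment ran over all genes, with a threshold of 0.05. The fit was tested on simulated data. With 2 arrays against 2 an exact permutation p cannot go below 0.333, and so few arrays limit precision. Background was the highest of 44 control probe sets. The 10 genes and the lists were chosen with earlier results of these data known. From the lists, genes past the threshold were named, and the 2 highest and 2 lowest in each comparison. Alternatives changed the filter, the probe set rule, the normalization, the variance prior and the arrays.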

Additional observations from a re-analysis of the deposited data

How the results depend on the processing

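Of the 30 results on these genes (10 genes, GOF, LOF and the difference), 15 kept their direction and their side of the threshold under every alternative run, 11 changed side only and 4 reversed. All 4 reversals came from leaving out 1 array, and the cause was not tested. Timp1 with GOF ran from -1.03 to 1.96 and its difference from -0.23 to 2.76, the lowest both without control papilloma replicate 2. Mmp14 with GOF ran from -0.10 to 0.32, and was below 0 without control papilloma replicate 2 or GOF replicate 1. Mmp9 with LOF ran from -0.98 to 0.53. Over all genes, 169 were called with GOF, 2 with LOF and 11 for the difference. Leaving out each array gave 1 to 297 with GOF, 0 to 122 with LOF and 1 to 274 for the difference. The highest counts came without control carcinoma replicate 1 and the lowest GOF count without GOF replicate 2. Quantile normalization gave 105 with GOF. A trended and robust prior gave 32 with LOF and 68 for the difference. The mean of a gene's probe sets gave 0 with LOF and 6 for the difference, and the 4 carcinoma arrays alone gave 0 with LOF. For the difference, a filter within each tumour type gave 41 and leaving out shared probe sets gave 18. Over probe sets, 83 were called with GOF, 3 with LOF and 5 for the difference. The trended prior gave 248, 31 and 82, and median centring gave 139 with GOF and 9 for the difference. A 2-fold rule was met by 324 genes with GOF and 85 with LOF, against 848 and 404 at 1.5-fold.

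Replicates of the 2 groups of a tumour type share only a number: the correlation of the deviations of same-numbered arrays was 0.00179 in papilloma and 0.125 in carcinoma. With the replicate number as a block, 124 genes were called with GOF, 1 with LOF and 3 for the difference, and Adamts1 kept its GOF call (limma adjusted p = 0.0458). With a replicate block within each tumour type, chosen after seeing the data, the counts were 3, 0 and 3, and Adamts1 missed the threshold (0.0776).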

Other observations

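Several of these genes differed more between the 2 arrays of a group than most genes did. In control carcinoma the gap was 1.37 for Timp3, exceeded by 3.22% of genes, 1.24 for Timp1 (3.96%), 1.22 for Mmp3 (4.07%) and 1.07 for Mmp10 (5.17%), where the median gap was 0.20. Replicate 2 was the higher array for Timp3 and Mmp3, and replicate 1 for Timp1 and Mmp10. In control papilloma the gap for Mmp10 was 0.99, exceeded by 4.15% of genes. In contrast the gap for Adamts1 in control carcinoma was 0.06 and for Mmp14 0.05, below the median.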
